A study of Mus musculus with 29 samples.

Results

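Genes of the lysosome and its cathepsins were examined in RNA pulled down on tagged ribosomes from mouse astrocytes and microglia. The set holds 42 genes, chosen by name as lysosomal hydrolases, membrane proteins and regulators, and all 42 were found among the 36172 gene rows of the table. The rule goes by gene name alone. In NuTRAP mice, cre recombinase switches on an EGFP-tagged ribosomal protein (L10a), so that translating ribosome affinity purification (TRAP) with an anti-GFP antibody recovers RNA from the cre-expressing cells. Aldh1l1-cre/ERT2+; NuTRAP+ mice (Aldh1l1-NuTRAP, labels A) tag astrocytes and Cx3cr1-cre/ERT2+; NuTRAP+ mice (Cx3cr1-NuTRAP, labels C) tag microglia. Cre was induced at an age of about 3 months with tamoxifen (100 mg per kg on each of 5 days) in every mouse of either line, so no group lacked cre, the NuTRAP allele or the drug. The paper collected brains of the Cx3cr1 line later after tamoxifen than those of Aldh1l1 mice for flow cytometry and imaging. That time is not in the labels here, and any difference in it cannot be told apart from line. The cre of the Cx3cr1 line sits in the Cx3cr1 locus itself and replaces a copy of that gene. The fractions were the cleared brain homogenate (input), the unbound RNA left after pull-down (negative), the bead-bound RNA (positive) and whole tissue extracted by a conventional method (slice). The Aldh1l1 line gave positive and negative fractions of 3 mice, while the Cx3cr1 line gave input, negative and positive fractions of 6 mice and whole tissue of 5 of them. Input and whole tissue of the Aldh1l1 line were not analysed here, so the astrocyte pull-down was compared with its negative fraction.

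Lysosomes are acidic organelles in which proteins, glycans, lipids and nucleic acids are broken down. Cathepsins are their main proteases, glycosidases and sulfatases take sugar chains apart from the end, and LAMP proteins coat the limiting membrane. TFEB is a transcription factor that activates many lysosomal genes through a short palindrome called the CLEAR element, whose core is an E-box. Microglia, the resident phagocytes of brain, are known for high lysosomal protease levels, and astrocytes also take up and digest synaptic material and debris.

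Promoters are shown because many genes of the set are described as targets of that element. RefSeq start windows on GRCm38.p6, the assembly also called mm10, run from 250 bases before to 50 bases after a start. They were found for 39 of the 42 genes, the others being Ctsb, Ctsh and Asah1. The E-box core CACGTG, a palindrome that reads the same on both strands, was in windows of 14 of the 39 genes (35.9%) and of 8.09% of all 27025 genes with a window. The longer form TCACGTGA, which contains the shorter core, was in 5 of 39 (12.8%, Cln3, Ctsa, Ctsd, Gla and Mcoln1) against 1.12% of all genes. GAGGAAGT, a core of the macrophage factor PU.1, was in 4 of 39 on either strand (10.3%, Ctsc, Ctss, Gla and Gusb) against 3.69%. Capitals mark the E-box in Lamp1, Ctsd and Mcoln1 and the PU.1 core, on the opposite strand, in Ctsc and Ctss. A match is a description of letters and not a site shown to be bound. Lamp1 had the most E-boxes of any of the genes, with 4 between 61 and 15 bases before its RefSeq start, at chr8:13159088-13159160 on the plus strand. The deposited table starts that gene 26 bases earlier, so that by its position the third box crosses the start and the last lies inside the gene.
Lamp1: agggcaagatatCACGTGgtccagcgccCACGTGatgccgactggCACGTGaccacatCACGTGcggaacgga
Ctsd, chr7:142387908-142387937, minus strand: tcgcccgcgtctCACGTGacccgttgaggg
Mcoln1, chr8:3500436-3500491, plus strand: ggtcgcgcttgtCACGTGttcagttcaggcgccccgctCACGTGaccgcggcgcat
Ctsc, chr7:88277922-88277953, plus strand: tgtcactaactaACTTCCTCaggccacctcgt
Ctss, chr3:95526772-95526791, plus strand, across the start: aaatgaaagttcACTTCCTC

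The smallest library, the slice of mouse 210, held 4260949 counts and the largest 26857866. Levels are given as CPM, a gene's count scaled to a common library total. The 6 astrocyte markers summed to 6643-9088 CPM in the astrocyte pull-down and 1185-1310 CPM in its negative fraction, and none was at or under 3 counts throughout. The 8 microglia markers summed to 2151-5213 CPM in the microglia pull-down and 253-273 CPM in the input. Other cells were present in both pull-downs. In the microglia pull-down 6 neuronal markers still summed to 4938-7470 CPM (median 6167), against 6800-7144 CPM (median 6966) in the input. The 6 oligodendrocyte markers had 1219-3165 CPM there and 4028-4627 CPM in the input. Another 6 markers, of border-associated macrophages, which also express Cx3cr1, summed to 57.9-196 CPM against 9.54-24.4 CPM in the input. In the astrocyte pull-down 4 choroid plexus markers summed to 2819-3335 CPM against 468-614 CPM in the negative fraction, and 3 ependymal markers to 54.7-84.6 CPM against 20.4-34.2 CPM. In the microglia pull-down 4 endothelial markers had 65.4-152 CPM (median 114) and in the input 70.9-83.4 CPM (median 73.0). The microglia pull-down of mouse 194 stood apart, with the highest sum of microglia markers (5213 CPM) and of border-associated macrophage markers (196 CPM). The astrocyte pull-down of mouse 290 held more microglia marker RNA (72.3 CPM) than those of mice 293 (29.8 CPM) and 294 (33.7 CPM). The part of these cells in the lysosomal values was not tested. Levels given below for microglia or astrocytes are those of the pull-downs, with the RNA of such cells in them.

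The 42 genes together were higher in each pull-down than in any other fraction. Their summed level was 8390, 8429 and 8497 CPM in the astrocyte pull-down, against 5602, 5691 and 6113 CPM in its negative fraction. In the microglia line the positive fraction held 9384 to 12772 CPM (median 10366), with the highest value in mouse 194. The input of that line held 5925 to 6448 CPM (median 6149), the negative fraction 5911 to 6341 CPM (median 6217) and whole tissue 6327, 6549, 6566, 6572 and 6706 CPM. Neither pull-down overlapped its comparison fractions. The make-up of the sum differed by line. Peptidases had a mean of 4910 CPM in the microglia pull-down and 2313 CPM in the astrocyte pull-down. Lipid hydrolases with the activator Psap had 2467 CPM in microglia and 3442 CPM in astrocytes. The summed level of sulfatases was below the other fractions in both pull-downs, at 467 CPM against 672 CPM in the input of the microglia line and 318 CPM against 624 CPM in the negative fraction of the astrocyte line. A single gene, Ids, made this drop, at 299 against 503 CPM in the microglia line and 127 against 471 CPM in the astrocyte line, while the other 3 sulfatase genes rose or were not called. In bulk RNA such as this, fewer cells of a type and less RNA per cell cannot be told apart.

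**Figure D1:**
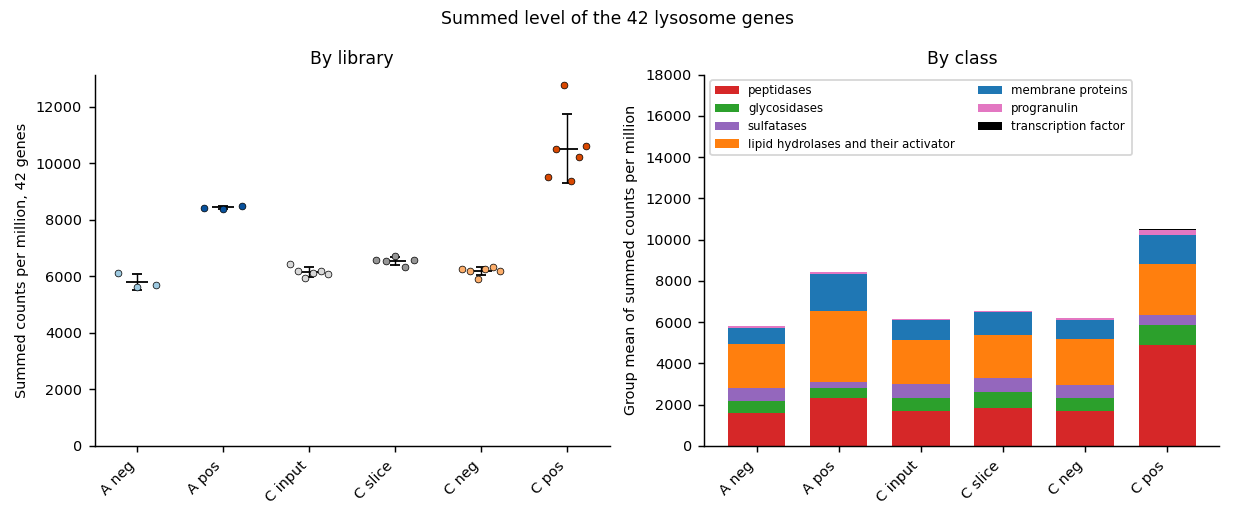
Left, summed CPM of the 42 genes in each of the 29 libraries by group (points), with the group mean and SD (bars). Right, the group mean of the sum stacked by gene class. The 3 astrocyte pull-downs lie at 8390-8497 CPM and the 6 microglia pull-downs at 9384-12772 CPM, above every other library, and the peptidase block is the largest part of the microglia bar.

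Levels were compared between genes only per kilobase of exon. Psap, which encodes the precursor of the saposins that help lipid hydrolases reach their substrates, led in both pull-downs, with 1103 ± 18.1 CPM per kilobase (SD, n = 3) in astrocytes and 777 ± 74.0 (SD, n = 6) in microglia. In astrocytes Lamp1 (324 ± 27.4), Ctsd (243 ± 37.4), Cd63 (130 ± 30.9) and Ctsb (116 ± 5.43 CPM per kilobase) followed, all SD of n = 3. Of these, Cd63 and Ctsb differed by less than the SD of Cd63. In microglia the cysteine protease gene Ctss (699 ± 195) and the aspartic protease gene Ctsd (694 ± 165) stood next to Psap, and the gaps among the 3 levels were smaller than the SDs of Ctss and Ctsd, though not than that of Psap. Lgmn (215 ± 53.5), encoding the asparagine-specific protease legumain, and Lamp1 (164 ± 13.5 CPM per kilobase) came after them, all SD of n = 6. At the other end in astrocytes were Ctsk (0.829 ± 0.401), Ctsh (0.786 ± 0.0972), which did not differ beyond their spread, and Slc11a1 (0.133 CPM per kilobase). The lowest in microglia were Cln3 (3.47), Sgsh (3.27) and Manba (2.56 CPM per kilobase). Ctsk had 5.16 ± 6.26 CPM per kilobase with all 6 mice and 2.62 ± 0.682 without mouse 194 (SD, n = 5), next to the lowest. Per kilobase of the longest transcript, Ctsd (767) moved ahead of Ctss (700), and Ctsk (5.16) took the place of Cln3 (6.26) among the 3 lowest in microglia. In astrocytes Ctsk (0.829) then lay under Ctsh (1.29).

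In the microglia line the question was which lysosomal RNAs were gained on the tagged ribosomes over the whole homogenate. Between positive fraction and input, 26 of the 42 genes were higher and 3 lower, where 23.3% of all 13838 genes tested were higher and 25.6% lower. Of the 42, 13 were over 2-fold higher and 0 over 2-fold lower, against 5.61% and 1.78% of all genes. The median log2 fold change was 0.50 for the 42 and -0.00 for all genes. Tests were edgeR quasi-likelihood tests with Benjamini-Hochberg adjustment over all genes tested and a threshold of 0.05, and log2 fold changes are after TMM scaling, given with their standard error (SE).

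Peptidases carried most of the gain in summed level, with a mean of 1679 CPM in the input and 4910 CPM in the positive fraction. Of the 13 genes, 10 were higher and 0 lower, beside 23.3% and 25.6% of all genes. Ctss, encoding cathepsin S of antigen-presenting cells (chr3:95526786-95556403), had 664 to 1428 CPM (median 908) in the 6 positive fractions. Its input had 58.6 to 84.0 CPM (median 72.7), so the groups did not overlap. The log2 fold change was 3.73 ± 0.17 (SE, 13.3-fold, adjusted p = 1.04e-08, higher in 6 of 6 mice). The aminopeptidase gene Ctsh rose by 2.85 ± 0.20 and Ctsc, which activates serine proteases of immune cells, by 2.73 ± 0.19 on the log2 scale. Next were Ctsz (2.11 ± 0.13), Ctsd (2.05 ± 0.13), Lgmn (1.93 ± 0.14) and the carboxypeptidase gene Ctsa (1.27 ± 0.12). Smaller gains were seen for Ctsl (0.98), Ctsf (0.56) and Ctsb (0.47). The 3 peptidase genes not called were Ctsk (0.92), Tpp1 (0.25) and Ctso (0.03 on the log2 scale). Ctsk had 27.0 CPM in the pull-down of mouse 194 and 3.14 to 5.71 CPM in the other pull-downs, and without mouse 194 its log2 fold change was -0.05.

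Glycosidases were split. Man2b1 (2.15 ± 0.16), Hexa (1.75 ± 0.15), Gusb (1.65 ± 0.15), Naglu (0.93 ± 0.11) and Glb1 (0.21 ± 0.07) rose, whereas Idua (0.40), Manba (0.16), Gla (-0.02) and Gaa (-0.17) were not called. Man2b1 trims alpha-mannose and Hexa takes part in ganglioside breakdown. Among sulfatases only Sgsh rose (0.38 ± 0.09) and Ids fell, while Arsa (0.15) and Arsb (-0.09) were not called. Of the lipid group, Asah1 (0.69 ± 0.12), Lipa (0.41 ± 0.08) and Psap (0.22 ± 0.07) rose, and Ppt1 (0.11) and Smpd1 (-0.10) were not called. Grn, encoding progranulin, a secreted growth factor that is delivered to lysosomes, rose by 2.07 ± 0.16.

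Of the 9 membrane protein genes, 5 rose and 2 fell, beside 23.3% and 25.6% of all genes. Laptm5, a lysosomal protein of blood-derived cells (chr4:130913334-130936148), had 322 to 736 CPM (median 437) in the positive fraction and 33.1 to 39.7 CPM (median 36.9) in the input. The fractions were far apart in every mouse, with a log2 fold change of 3.66 ± 0.19 (SE, 12.7-fold, adjusted p = 1.45e-08). Slc11a1, the phagosomal metal transporter (chr1:74375203-74386051), had 13.8 to 34.7 CPM (median 18.4) against 2.16 to 3.70 CPM (median 2.69). It did not overlap either, at 2.87 ± 0.22 (SE, 7.29-fold, adjusted p = 1.89e-07). Cln3 (0.55 ± 0.19), Cd63 (0.53 ± 0.09) and Lamp1 (0.20 ± 0.06) were higher by less than 2-fold, and Lamp2 (0.04) and Mcoln1 (0.04) were not called. Lamp1, Glb1 and Psap lost their calls without mouse 210 or 277. Cln3 lost its call without mouse 155, 192 or 194. With the mouse as a block Cln3 (adjusted p = 0.0633), Glb1 (adjusted p = 0.0569) and Psap (adjusted p = 0.0503) were not called.

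The genes that fell in the microglia pull-down were Ids, Scarb2 and Tmem106b. Ids, encoding iduronate 2-sulfatase (chrX:70343070-70365085), had 222 to 362 CPM (median 289.6) in the positive fraction and 482 to 531 CPM (median 502) in the input. All 6 mice were lower, without overlap, and it fell by 0.74 ± 0.10 on the log2 scale (adjusted p = 3.25e-05). Scarb2, the receptor that carries beta-glucocerebrosidase to lysosomes (chr5:92443873-92505608), had 48.5 to 60.4 CPM (median 56.6) against 73.7 to 98.3 CPM (median 81.4). It fell by 0.59 ± 0.09 (adjusted p = 0.000127). Tmem106b, a membrane protein of late endosomes and lysosomes (chr6:13069759-13089269), had 123 to 177 CPM (median 154) against 179 to 221 CPM (median 199). It fell by 0.38 ± 0.10 (adjusted p = 0.00572), and for both genes the ranges stayed apart.

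The same positive fractions were also set against the negative fraction and whole tissue, so these values share libraries with those above. Against the negative fraction, 26 of 42 genes were higher and 1 lower (Ids), where 12.8% and 11.6% of all genes were. Against whole tissue, 23 were higher and 4 lower (Ids, Scarb2, Tmem106b and Gaa), where 27.5% and 24.3% were. For Ctss the log2 fold changes were 3.72 ± 0.20 against the negative fraction and 3.58 ± 0.20 against whole tissue. Those of Laptm5 were 3.64 ± 0.19 and 3.72 ± 0.23. With the mouse as a block the counts were 21 and 1 against the negative fraction, and 21 and 3 against whole tissue, where Gaa was no longer called. Those of all genes went from 1759 and 1593 to 1278 and 1100 against the negative fraction, and from 3705 and 3279 to 2930 and 2877 against whole tissue. Scarb2 was not called against the negative fraction (-0.18 ± 0.10), though it was without mouse 155 (-0.22, adjusted p = 0.0386), and fell by 1.07 ± 0.10 against whole tissue, where its values were 91.1, 117, 125, 126 and 126 CPM. The lowest of these was mouse 210, the library with the fewest counts.

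In the astrocyte line, 25 of 41 genes tested were higher in the positive than in the negative fraction and 6 were lower, where 26.8% and 24.8% of all 13319 genes were. Over 2-fold, 14 were higher and 4 lower, against 18.2% and 16.8% of all genes. Slc11a1 was not tested at this depth, since it did not exceed 20 counts in all libraries of either group. The median log2 fold change of the genes was 0.81, and 0.04 for all genes. Scaling mattered here, because TMM lifted the pull-down by 0.35 on the log2 scale relative to library totals (median of all genes -0.31 when only totals were used). With library totals 17 of the genes were higher and 8 lower, a share of higher among called genes of 68.0% in place of 80.6% (33.6% in place of 52.0% for all genes). The counts were 15 and 2 without mouse 293 and also without mouse 294, while those of all genes went from 3569 and 3299 to 1977 and 1685 without mouse 293 and to 1987 and 1600 without mouse 294.

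Ctso, encoding cathepsin O, a little-studied cysteine protease (chr3:81932616-81956725), was the gene with the largest gain. Its level was 173, 174 and 180 CPM in the astrocyte pull-down and 24.3, 28.5 and 30.9 CPM in the negative fraction. Replicates lay close together and the groups far apart, at a log2 fold change of 3.00 ± 0.17 (SE, 8.01-fold, adjusted p = 4.16e-05). Cd63, a tetraspanin of late endosomes and exosomes (chr10:128908919-128912818), had 394, 433 and 608 CPM against 78.4, 85.2 and 134 CPM. Mouse 290 was the highest in both fractions, and the log2 fold change was 2.61 ± 0.29 (6.12-fold, adjusted p = 0.000378). Ctsz, encoding the carboxypeptidase cathepsin Z (chr2:174427494-174438992), had 94.2, 99.7 and 131 CPM against 30.3, 33.7 and 51.0 CPM. It did not overlap, at 1.85 ± 0.26 (3.60-fold, adjusted p = 0.00105).

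Other peptidase genes that rose in astrocytes were Tpp1 (1.52 ± 0.22), Ctsl (1.52 ± 0.22), Ctsf (1.40 ± 0.27), Ctsd (0.82 ± 0.24), Ctsc (0.81 ± 0.26), Ctsa (0.71 ± 0.13) and Ctsb (0.66 ± 0.13). Lgmn was at 0.08 ± 0.23 and not called. Ctsa, Ctsb, Ctsc and Ctsd were not called with library totals, without mouse 293 or without mouse 294, and the same held for Hexa, Arsb, Scarb2 and Grn. Of 9 glycosidase genes 2 rose, Gusb (1.34 ± 0.22) and Hexa (0.86 ± 0.24), near the 26.8% of all genes, and Naglu (0.61), Glb1 (0.34), Idua (0.29), Manba (0.21), Gla (0.05), Man2b1 (-0.20) and Gaa (-0.22) were not called. With library totals Gaa (-0.56, adjusted p = 0.0270) and Man2b1 (-0.55, adjusted p = 0.0235) were called lower. Sulfatases Sgsh (2.39-fold, adjusted p = 0.00240), Arsa (0.84 ± 0.15) and Arsb (0.52 ± 0.19) rose. In the lipid group Asah1 (1.11 ± 0.23), Psap (1.04 ± 0.14), Smpd1 (1.00 ± 0.16) and Ppt1 (0.93 ± 0.15) rose and Lipa was at -0.01 ± 0.26. The membrane protein genes Lamp1 (1.79 ± 0.14), Lamp2 (1.52 ± 0.14), Scarb2 (0.96 ± 0.22) and Cln3 (0.95 ± 0.16) rose and Tmem106b (0.39 ± 0.16) was not called. Grn rose by 0.50 ± 0.15. Arsa was not called without mouse 293 or 294, Cln3 without mouse 293 and Asah1 without mouse 294. With the mouse as a block Tmem106b (adjusted p = 0.00618), Naglu (adjusted p = 0.0205) and Glb1 (adjusted p = 0.0472) were called higher.

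Ctss, Laptm5 and Ids fell the most among genes with over 20 counts in all libraries. Ctss had 4.15, 4.52 and 19.9 CPM in the astrocyte pull-down, the highest in mouse 290, and 51.1, 55.7 and 95.9 CPM in the negative fraction. It fell by 2.50 ± 0.65 on the log2 scale (5.67-fold, adjusted p = 0.0148), and was not called without mouse 293 (adjusted p = 0.0676) or without mouse 294 (adjusted p = 0.0610). Without mouse 290 it fell by 3.31 (adjusted p = 1.43e-08). Laptm5 had 7.41, 8.16 and 12.1 CPM against 37.5, 38.4 and 41.5 CPM. It fell by 1.75 ± 0.23 (3.36-fold, adjusted p = 0.000808). Ids had 90.7, 142 and 148 CPM against 343, 530 and 540 CPM. Both genes were separate between the groups in every library, and Ids fell by 1.55 ± 0.25 (2.92-fold, adjusted p = 0.00178). Ctsk (by 1.37 ± 0.40), Ctsh (by 0.76 ± 0.24) and Mcoln1 (by 0.49 ± 0.16), which encodes a lysosomal calcium channel, also fell by these log2 amounts and were not called without mouse 293 or 294. Ctsk passed the count filter through the negative fraction alone. The 8 microglia markers were lower in the same pull-down, at 29.8-72.3 CPM against 243-346 CPM, and their part in the values of Ctss, Laptm5 and Ctsh was not tested.

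**Figure D2:**
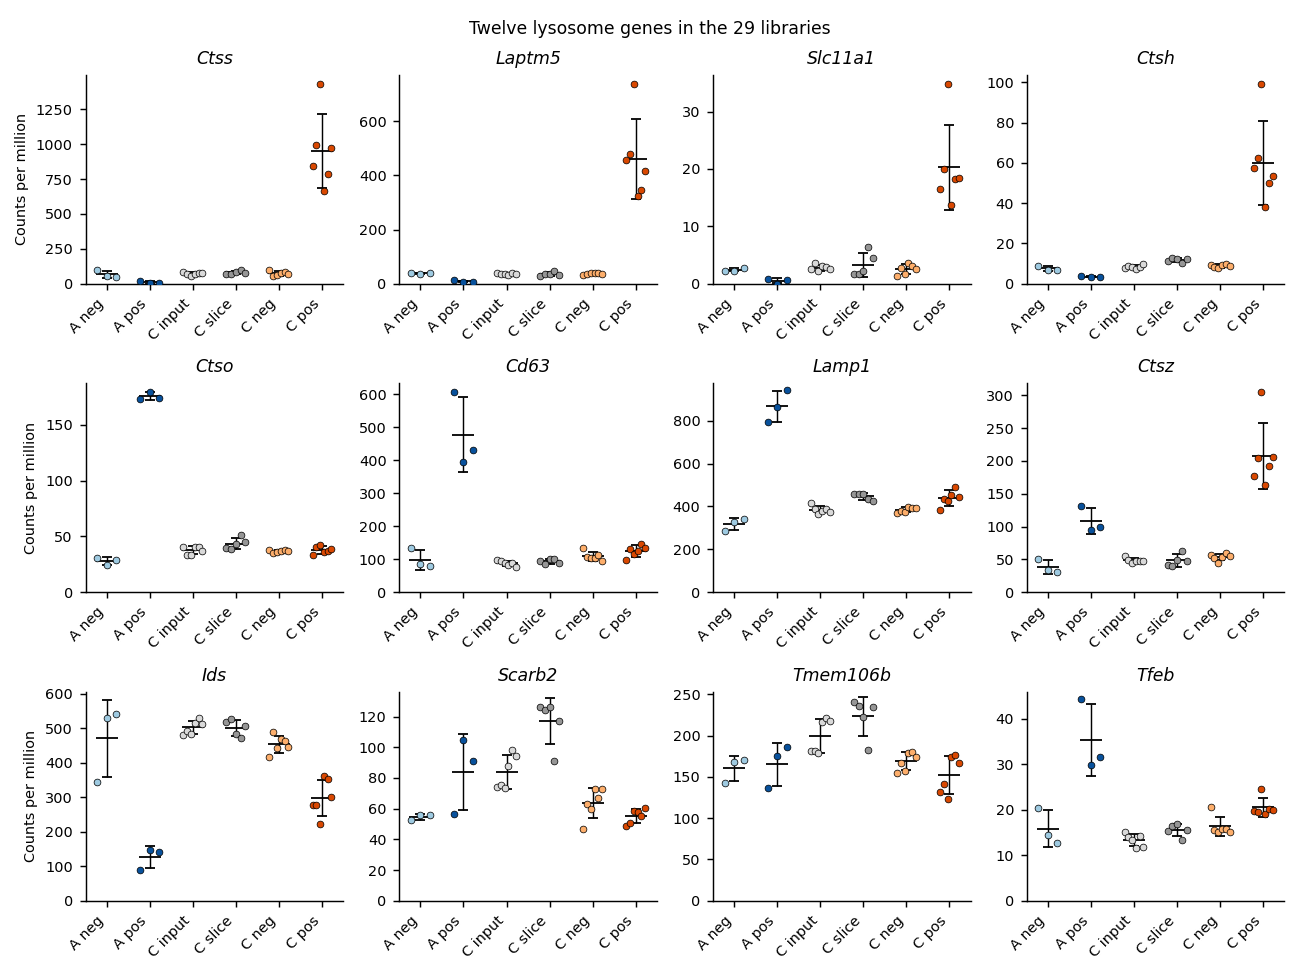
CPM of the 12 genes described library by library (points) with the group mean and SD (bars), each panel on its own linear axis from 0. A is the Aldh1l1-NuTRAP line (3 mice) and C the Cx3cr1-NuTRAP line (6 mice, 5 for slice). Ctss, Laptm5, Slc11a1 and Ctsh are high in the microglia pull-down alone, and Ctso, Cd63 and Lamp1 are highest in the astrocyte pull-down.

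Taking each gene's calls in the pull-downs side by side, 17 of the 41 genes tested in both lines were higher in both, where 7.13% of 13120 genes were. Refitting the astrocyte comparison left 11 of them with library totals, 10 without mouse 293 and 10 without mouse 294, among 601, 472 and 453 of all genes in place of 936. They were Asah1, Cd63, Cln3, Ctsa, Ctsb, Ctsc, Ctsd, Ctsf, Ctsl, Ctsz, Grn, Gusb, Hexa, Lamp1, Psap, Sgsh and Tfeb. Of these, Cd63, Ctsf, Ctsl, Ctsz, Gusb, Lamp1, Psap, Sgsh and Tfeb were higher in both under each of these refits of the astrocyte comparison. Refits of the microglia comparison dropped Lamp1 and Psap without mouse 210 or 277, and Psap with the mouse as a block. The astrocyte and microglia comparisons share no library, but differ in the fraction compared with. Against the negative fraction of the microglia line, Cd63 (0.22 ± 0.10), Psap (0.14 ± 0.07) and Sgsh (0.28 ± 0.11) were not called. Ctsh, Ctss and Laptm5 were lower in the astrocyte and higher in the microglia pull-down, where 3.04% of all genes were. Scarb2 was the only one higher in the astrocyte and lower in the microglia pull-down, and Ids the only one lower in both. These patterns were seen in 6.17% and 9.42% of all genes. In 7 genes (Arsa, Arsb, Ctso, Lamp2, Ppt1, Smpd1 and Tpp1) the astrocyte comparison was called higher and the microglia comparison was not called, where 12.9% of all genes were. In 5 (Glb1, Lgmn, Lipa, Man2b1 and Naglu) it was the reverse, where 12.4% of all genes were, so these counts lay near the background. A call in 1 line and not in the other is no test of a difference, which the interaction of line and fraction gives.

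**Figure D3:**
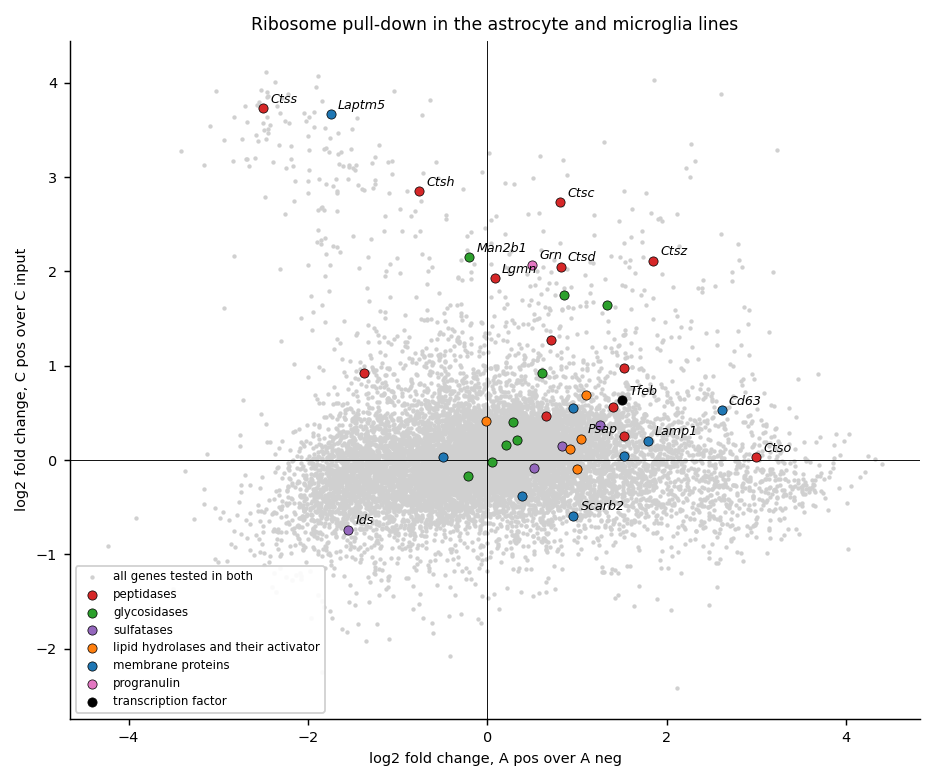
Log2 fold change of positive over negative fraction in the Aldh1l1 line (x axis) and of positive fraction over input in the Cx3cr1 line (y axis), for all 13120 genes tested in both (grey) and 41 lysosome genes coloured by class. Ctss, Laptm5 and Ctsh lie at upper left, Ctso at the right edge of the set near 0 on the y axis, and Ids is the only one called lower in both.

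The pull-downs were compared directly to ask how astrocytes and microglia differ in lysosomal RNA. In astrocytes 16 of 42 genes were higher and 17 lower than in microglia, where 30.6% and 33.1% of 13676 genes were. Over 2-fold, 5 were higher and 10 lower, against 16.5% and 19.3% of all genes. The counts of the set lay near the background, and its median log2 fold change was -0.12 beside -0.08 for all genes. With library totals the median of all genes shifted to -0.39 and the counts became 12 higher and 21 lower, the share of higher among called genes going from 48.5% to 36.4% (48.0% to 31.4% for all genes). The 4 genes that then lost the call of higher were Ctsl, Arsa, Arsb and Tmem106b, and Gaa, Gusb, Idua and Manba were called lower.

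Of 13 peptidase genes, 4 were higher and 8 lower in astrocytes, beside the 30.6% and 33.1% of all genes. Ctss (4.15, 4.52 and 19.9 CPM in astrocytes, 664 to 1428 CPM in microglia) had a log2 fold change of -6.35 ± 0.63 (adjusted p = 7.64e-06). Laptm5 was at -5.34 ± 0.36 (adjusted p = 4.54e-07). Ctsh had 3.28, 3.29 and 4.04 CPM in astrocytes and 37.9 to 99.0 CPM (median 55.4) in microglia, at -3.80 ± 0.33 (adjusted p = 2.97e-06). None of these genes overlapped between the pull-downs. Slc11a1, with 0, 0.633 and 0.842 CPM in astrocytes, was at -5.18 ± 0.64 (adjusted p = 3.64e-05), and a library without a count of it makes the size of that value uncertain. Man2b1 (-2.49 ± 0.26), Ctsk (-2.41 ± 0.86), Ctsc (-2.26 ± 0.29), Lgmn (-1.70 ± 0.24), Grn (-1.56 ± 0.24) and Ctsd (-1.21 ± 0.22) completed the 10 genes over 2-fold lower. Of the 10, Slc11a1 and Ctsk passed the count filter only through the microglia pull-down, where they are high. The filter thus favoured a difference, and their calls are no support for one. Leaving out a single mouse moved some of these, Ctsk to -1.40 without mouse 194 (adjusted p = 0.00825), Ctss to -7.49 without mouse 290 and Slc11a1 to -4.52 without mouse 293.

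Ctso, Cd63, Lamp1, Smpd1 and Tfeb were the 5 genes over 2-fold higher in astrocytes. Ctso had 33.2 to 42.7 CPM (median 38.1) in microglia, far under the astrocyte values, at 2.52 ± 0.11 (adjusted p = 1.82e-08). Cd63 had 97.6 to 148 CPM (median 128) in microglia, at 2.25 ± 0.16 (adjusted p = 5.30e-07). Lamp1 (chr8:13159135-13175338) had 796, 862 and 942 CPM in astrocytes and 383 to 492 CPM (median 439) in microglia, at 1.29 ± 0.10 (adjusted p = 1.49e-06). Each of these groups was separate from the other. Smpd1, encoding acid sphingomyelinase, was at 1.11 ± 0.14, and the other lipid genes went both ways, with Psap at 0.82 ± 0.11, Ppt1 at 0.62 ± 0.10 and Lipa at -0.70 ± 0.16. Ctsb (0.02 ± 0.11), Gla (0.03 ± 0.13) and Glb1 (0.15 ± 0.12) were not called between the lines, as were Cln3, Asah1, Manba, Gaa, Gusb and Idua.

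**Figure D4:**
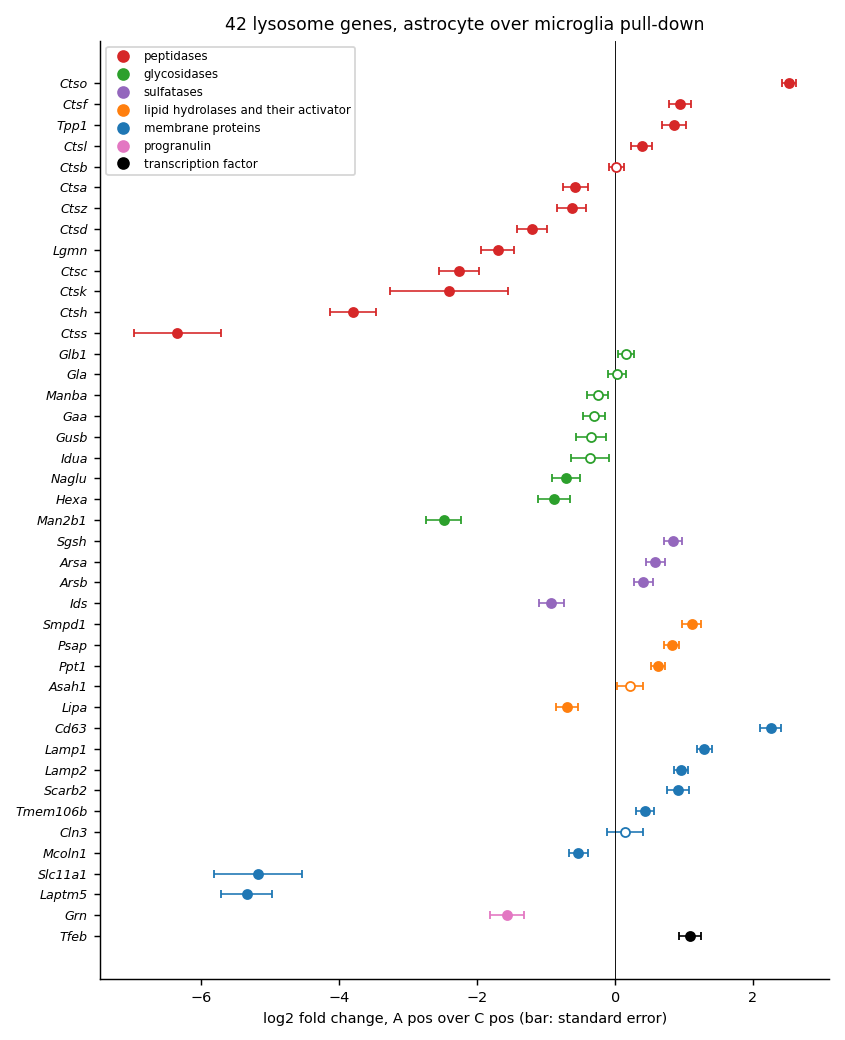
Log2 fold change of the astrocyte over the microglia pull-down for each of the 42 genes (points, 3 against 6 libraries) with its standard error (bars), grouped by class. Filled points passed the adjusted threshold and open points did not. Ctss at -6.35 and Ctso at 2.52 mark the ends of the peptidase class.

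The lines are different mice, so the gain of each pull-down over its own negative fraction was compared between them as an interaction. The gain was higher in the astrocyte line for 15 genes and lower for 14 of 42, where 25.5% and 29.9% of 13983 genes were. The interaction uses the microglia pull-down relative to its negative fraction. Ctso (2.89 ± 0.14, adjusted p = 1.19e-11), Cd63 (2.36 ± 0.25) and Lamp1 (1.53 ± 0.11) had the higher ratio in the astrocyte line. Low values were those of Ctss (-6.28 ± 0.60, adjusted p = 8.18e-08) and Laptm5 (-5.44 ± 0.33). Slc11a1 was at -5.16 ± 0.68, but it entered the test only through the fractions of the microglia line. Neither fraction of the astrocyte line exceeded 20 counts of it in all libraries. Of the 7 genes called higher in the astrocyte comparison only, 6 passed and Arsb (0.38 ± 0.18) did not, beside 92.5% of all 1699 genes of that pattern. Of the 5 called in the microglia comparison only, Lgmn (-1.79 ± 0.28) and Man2b1 (-2.50 ± 0.28) passed, beside 25.8% of all 1623 genes of that pattern. The patterns were read from the same libraries, so these counts are descriptions, and Naglu (-0.48), Lipa (-0.48) and Glb1 (0.01) did not. Without mouse 290 Ctss was at -7.04, and without mouse 293 Slc11a1 was at -4.56. Lipa passed with the mouse as a block (-0.47, adjusted p = 0.0245). Ctsz, gained in both lines, was at -0.17 ± 0.27, with no call.

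Tfeb itself (chr17:47737037-47792416) was low in every fraction and higher in both pull-downs. It had 29.8, 31.7 and 44.4 CPM in the astrocyte pull-down and 12.7, 14.4 and 20.5 CPM in the negative fraction. Mouse 290 was highest in both, and the groups did not overlap (2.83-fold, SE 0.26 on the log2 scale, adjusted p = 0.00279). In the microglia line it had 19.0 to 24.7 CPM (median 19.9) in the positive fraction and 11.5 to 15.1 CPM (median 13.8) in the input, again apart, at 0.64 ± 0.09 (adjusted p = 8.90e-05). Between the pull-downs it was higher in astrocytes by 1.09 ± 0.16 (adjusted p = 0.000137). The genes with an E-box were read beside those without. In the astrocyte pull-down 8 of 14 with and 15 of 24 without were higher (medians 0.76 and 0.83), where 26.8% of all genes were. In the microglia pull-down 10 of 14 with and 13 of 25 without were higher (medians 0.46 and 0.41), where 23.3% of all genes were, and no test was made of these counts.

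The fractions without pull-down were compared as well. Between negative fraction and input of the microglia line, Cd63 was higher (0.33 ± 0.09) and Scarb2 lower (-0.39 ± 0.10), 1 gene in each direction, where 1.41% and 4.7% of all genes were. Neither call was made without mouse 192, 194, 209, 210 or 277, and with the mouse as a block 6 genes were higher and 7 lower, where 2431 and 2684 of the 13748 genes tested were, so that the 42 did not stand above the background. Between input and whole tissue, Grn was higher (0.18 ± 0.05) and 13 genes were lower, where 15.7% and 14.6% of all genes were. The largest differences were those of Ctsh (-0.51 ± 0.10), Lipa (-0.50 ± 0.07), Scarb2 (-0.50 ± 0.10) and Sgsh (-0.45 ± 0.08), each lower in the input. The other 9, Gaa, Gusb, Lgmn, Lamp2, Lamp1, Arsa, Ctsl, Ctsd and Ctsb, lay between -0.43 and -0.15. The count of lower genes ran from 6 to 14 as single mice were left out, the lowest without mouse 194 and without mouse 209, and was 7 without mouse 277 and 8 without mouse 192. Grn kept no call without mouse 192, 194 or 209 or with the mouse as a block.

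A further 84 lysosome genes were counted, of which 82 had a single row. In the microglia pull-down against input 30 of 74 tested were higher and 12 lower, where 23.3% and 25.6% of all genes were. In the astrocyte pull-down 23 of 73 were higher and 15 lower, near the 26.8% and 24.8% of all genes. Pld4, an endolysosomal nuclease (3.64 ± 0.22), and the peptide transporter Slc15a3 (3.40 ± 0.19) rose the most in microglia. The kinase gene Mtor (by 0.71 ± 0.09), Gnptab (by 0.64 ± 0.07), which tags enzymes with mannose 6-phosphate, and Igf2r, a receptor for that tag (by 0.56 ± 0.11) fell there on the log2 scale. In astrocytes the cathepsin inhibitor Cst3 (2.81 ± 0.35), Gm2a, the ganglioside activator protein (2.71 ± 0.15), and Atp6v0e, a small subunit of the proton pump (2.66 ± 0.20), rose the most. Pld3 fell by 1.36 ± 0.16. Slc15a3 (by 2.94 ± 0.88) and Pld4 (by 2.82 ± 0.72) also fell, but they passed the count filter only through the negative fraction, where they are high. The filter thus favoured a difference, and their calls are no support for one.

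The V-ATPase is the proton pump that acidifies lysosomes and also synaptic vesicles. Of its 18 subunit genes tested in the astrocyte line, 1 was higher (Atp6v0e) and 8 lower, with a median log2 fold change of -0.38, where 26.8% and 24.8% of all genes were called. The neuronal markers summed to 1405-1940 CPM in the same pull-down and 6191-7446 CPM in the negative fraction, and their part was not tested. In the microglia line 5 of 18 were higher than in the input and 2 lower, with a median of 0.03, beside 23.3% and 25.6% of all genes. No test set the subunits against other genes.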

How the data were processed

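Ribosome-bound, unbound, input and whole-tissue RNA of 29 libraries was read as the deposited table of raw values per gene. The authors trimmed the reads, aligned them with strand to mm10 and assigned them to RefSeq genes in Strand NGS, and the deposited raw values are expected counts without normalization. Of the nonzero values 82.4% are not whole, and tests used the nearest whole number. The deposited log2 values, which the authors normalized by DESeq, were not used. Libraries were assigned by column title, and 0 columns of per-sample values lacked a sample.

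A gene was tested where a compared group exceeded 20 counts in each of its libraries, with edgeR 4.0.16 (R 4.3.3; TMM scaling, robust quasi-likelihood, two-sided, Benjamini-Hochberg threshold 0.05), fitting only the groups compared, without a mouse term. The study used analysis of variance. The standard error is the log2 fold change over the root of F. Fractions of a mouse share its number, so the numbers pair the samples. Residual correlations were 0.484 to 0.692 for the astrocyte line and -0.307 to 0.646 in the other comparisons. The mouse as a replicate block was an alternative, beside RLE scaling, library totals, DESeq2 1.42.0, other count filters, all groups in one fit, the study's added fold-change rule and leaving out each mouse. The fits were tested on simulated data. Exon lengths came from GENCODE vM21 (GRCm38) and gene positions from the table (mm10). Tables were summed with pandas 2.3.3 and numpy 2.4.6 and drawn with matplotlib 3.10.9, under Python 3.11.15.

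Genes given library by library are the 3 with the largest change in each direction among called genes with over 20 counts in all libraries compared, in the astrocyte, microglia and line comparisons, plus Tfeb. Of the further lysosome genes, 1 is not reported here. The members, lists and motifs were chosen with earlier results of these data known. Sex is not in the labels, and nothing says whether mice were littermates. Depth, 4260949 to 26857866 counts per library, limits genes near 20 counts. Paralogous cathepsin genes may share reads.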

Additional observations from a re-analysis of the deposited data

Results flagged for a closer look

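In 52 sets of 5 or 6 libraries of the microglia line (12 genes and the sum of the 42), 7 held a highest or lowest library far from the others by Dixon's test. Chance gives about 1 in 20. The pull-down of mouse 194 was high in Ctsz (305 CPM), Slc11a1 (34.7 CPM), Tfeb (24.7 CPM) and the sum (12772 CPM), and its negative fraction was low in the sum (5911 CPM). The whole tissue of mouse 210 was low in Scarb2 (91.1 CPM) and the negative fraction of mouse 155 was high in Tfeb (20.7 CPM).

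The ratio of positive to negative fraction differed between the lines by the interaction in 11 of the 12 genes, where 25.5% of all genes were higher and 29.9% lower. All but Tfeb were chosen for large changes in the same libraries, so the count is a description and no support for a difference. On the log2 scale, astrocyte minus microglia line, it was 2.89 for Ctso, 2.36 for Cd63, 1.53 for Lamp1, 1.10 for Tfeb, 1.10 for Scarb2 and 0.47 for Tmem106b. It was -6.28 for Ctss, -5.44 for Laptm5, -5.16 for Slc11a1, -3.60 for Ctsh and -1.01 for Ids. Slc11a1 entered that test only through the fractions of the microglia line.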

How the results depend on the processing

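Here A is the Aldh1l1 and C the Cx3cr1 line, and Pos, Neg, Input and Slice are the fractions. Under the alternatives, 191 of 232 counts of genes called stayed within 1.5 times the reported count and 41 moved beyond it. Of the 8 comparisons, C_Pos against C_Input, C_Pos against C_Slice, A_Pos against C_Pos and the interaction had none of the latter. With single mice left out, higher genes numbered 15 to 27 and lower genes 2 to 7 in A_Pos against A_Neg, lower genes 1 to 2 in C_Pos against C_Neg, higher 0 to 5 and lower 0 to 6 in C_Neg against C_Input (5 and 6 without mouse 155), and higher 0 to 2 and lower 6 to 14 in C_Input against C_Slice (3 and 16 without the slice of mouse 210 alone). In C_Neg against C_Input the higher and lower genes were 3 and 4 with DESeq2, 0 and 0 without a filter, 0 and 0 with all groups in one fit, and 6 and 7 with the mouse as a replicate block. In C_Input against C_Slice they were 0 and 8 with all groups in one fit, 0 higher with the replicate block, 8 lower without a filter and 0 and 6 with the study's added fold-change rule. The replicate block moved no other count by over 1.5 times and, beside the calls named above, changed calls only in C_Pos against C_Neg (Manba, Cln3, Lamp1, Glb1 and Tfeb lost), C_Pos against C_Slice (Idua, Glb1 and Gaa lost) and C_Input against C_Slice (Grn, Gaa, Ctsb, Arsa and Lamp2 lost, Ctso and Ctss called lower). No paired analysis was possible for A_Pos against C_Pos because they come from different mice. The cause of these moves was not tested.

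Among the values given, signs turned only for genes without a call. Ctsk, at 0.92 with all mice, was the one farthest from 0. In A_Pos against A_Neg with library totals these were Gla (-0.30), Lgmn (-0.26), Manba (-0.14), Idua (-0.058) and Glb1 (-0.0094), and elsewhere Gla with a 100-count filter (-0.038) and Lipa without a filter (0.0076). As single mice were left out, Lipa ranged from -0.072 to 0.051 and Manba from -0.034 to 0.31. In C_Pos against C_Input, Gla turned with RLE scaling (0.00045), DESeq2 (0.0013), the 100-count filter (0.027) and all groups in one fit (0.014). As single mice were left out, Gla ranged from -0.073 to 0.051 (0.00027 without mouse 192), Ctsk from -0.048 to 1.13, Ctso from -0.013 to 0.080, Lamp2 from -0.0077 to 0.072 and Mcoln1 from -0.0083 to 0.11. The negative values of Ctsk, Ctso and Lamp2 came without mouse 194 and that of Mcoln1 without mouse 155. In A_Pos against C_Pos with library totals Ctsb (-0.30), Gla (-0.28) and Glb1 (-0.16) turned, and Ctsb ranged from -0.013 to 0.11 as single mice were left out. In the interaction Glb1 turned with library totals (-0.26) and the 100-count filter (-0.020), and as single mice were left out Glb1 ranged from -0.020 to 0.13 and Ctsz from -0.26 to 0.075. Per kilobase of the longest transcript, levels were 1139 for Psap, 389 for Lamp1, 165 for Cd63, 148 for Ctsb and 1.29 for Ctsh in A_Pos, and 197 for Lamp1, 6.26 for Cln3 and 4.86 for Manba in C_Pos. Depth limits Slc11a1, Ctsk, Ctsh and Ctsc in the astrocyte pull-down most.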

Other observations

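Genes listed as cathepsin inhibitors were measured as well. Cst3, encoding cystatin C, was abundant in both pull-downs, with 4655 ± 1780 CPM (SD, n = 3) in astrocytes and 3357 ± 822 CPM (SD, n = 6) in microglia, against 845 ± 269 CPM in the astrocyte negative fraction and 781 ± 89.8 CPM in the microglia input. Cstb, encoding cystatin B, rose in both comparisons (0.94 ± 0.30 and 0.57 ± 0.12 on the log2 scale). Serpina3n rose in the astrocyte pull-down (1.32 ± 0.23) and fell in the microglia pull-down (by 0.55 ± 0.12). Cst6 fell in the astrocyte pull-down (by 1.30 ± 0.44) and was not called in microglia (-0.05 ± 0.18). Serpinb6a was called in neither (0.93 ± 0.36 and 0.07 ± 0.10), and Cst7 was too low to be tested in either. Of the relatives of TFEB, Tfe3 rose in both (0.56 ± 0.14 and 0.57 ± 0.08) and Mitf was called in neither (-0.01 ± 0.20 and 0.15 ± 0.09).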
